A study of Mus musculus with 36 samples.

Results

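Transcripts of 7 marker genes of brain mural cells, the contractile cells that wrap blood vessels, were followed through every library of the series. Of 10 listed genes, the 7 with a row in the deposited table of 19909 genes were Rgs5, Higd1b, Vtn and Cspg4, which mark pericytes, and Acta2, Tagln and Myl9, which belong to the contractile apparatus of smooth muscle. Kcnj8, Abcc9 and Anpep were not analysed here. The genes were chosen by name as established markers, with no measured value in the rule, but with earlier results of these data known.

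The 36 libraries were made from C57BL/6 mice, for which the labels name no transgene or other treatment. All mice were 8 weeks old. Cells of 8 groups were sorted by flow cytometry straight from homogenised subependymal zone (SEZ), the neurogenic niche beside the lateral ventricle of the adult brain. These are a population labelled Other, with 3 libraries, and 7 populations whose labels read qNSC, pNSC, aNSC and NPC1, with 4 libraries each, and NPC2, NB1 and NB2, with 3 libraries each. The remaining 2 groups, DFFDA_H and DFFDA_L, with 4 libraries each, were sorted from neurosphere cells at passage 4 that had been loaded with 2 ug/ml of the dye DFFDA and then cultured with EGF and FGF for 4 days. The sort gates are not stated, and the labels describe Other by no cell type. The labels call the libraries biological replicates but tie none to its own animals or culture, so each p-value reflects the spread among these libraries, which may be technical.

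Pericytes sit on brain capillaries inside the basement membrane and smooth muscle cells ring the arterioles. Endothelial PDGF-B acting on the receptor Pdgfrb recruits both, and the serum response factor with its myocardin cofactors switches on contractile genes through CArG boxes in their promoters. Several of these markers are not restricted to mural cells: Cspg4 (NG2) is also the classical surface proteoglycan of oligodendrocyte precursors, and regulatory myosin light chains such as Myl9 occur in many non-muscle cells.

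The contractile genes are the members for which a promoter motif is textbook knowledge, so the windows upstream of 2 of them are shown before their values. Each window holds 250 bases 5′ to 3′ upstream of the annotated start, from RefSeq (GRCm38.p6). RefSeq and GENCODE place the starts differently, so that 217 bases of the Acta2 window, with both of its matches, and 44 of the Myl9 window lie inside the gene as GENCODE gives it. Capitals mark a match to a CArG box, which reads CC, then 6 letters that are each A or T, then GG, or a match with 1 of those inner letters off. The motif reads the same way on both strands. Acta2, smooth muscle alpha-actin, lies on the minus strand and its window is chr19:34255374-34255623. Myl9, a regulatory light chain of myosin, lies on the plus strand and its window is chr2:156775214-156775463.
Acta2: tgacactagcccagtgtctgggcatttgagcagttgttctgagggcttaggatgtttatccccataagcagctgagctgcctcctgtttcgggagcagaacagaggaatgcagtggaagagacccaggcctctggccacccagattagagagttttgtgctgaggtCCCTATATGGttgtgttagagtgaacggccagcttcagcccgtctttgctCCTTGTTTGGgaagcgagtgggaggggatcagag
Myl9: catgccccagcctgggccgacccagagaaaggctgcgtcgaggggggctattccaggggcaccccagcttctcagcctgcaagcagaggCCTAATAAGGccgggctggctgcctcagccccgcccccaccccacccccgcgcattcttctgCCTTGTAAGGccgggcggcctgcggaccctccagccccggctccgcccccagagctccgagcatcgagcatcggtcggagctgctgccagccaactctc
Myl9 held 1 full match, CCTAATAAGG, that begins at position -161 from the start, and 1 match with a single inner letter off, at -99. Acta2 held 2 matches with a single inner letter off, at -84 and -34. Among all 32851 such windows 1.47% held a full match and 8.59% held a full or nearly full one. The windows of Rgs5, Vtn and Cspg4 held neither, which says only that these letters are not in these windows. No window was matched for Higd1b and Tagln.

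Values are on the deposited log2 scale, which resembles log2 CPM, and each library has a floor, between -5.06 and -2.18, that its lowest genes share. A value at the floor stands for a gene listed at the bottom of its library. The highest floor was that of qNSC replicate 1, where 3932 genes sat at it, and no total read count is given. A difference that involves values at the floor depends on where the floor lies, so called differences that involve floor values are also given with every value below 0 set to 0.

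**Figure D1:**
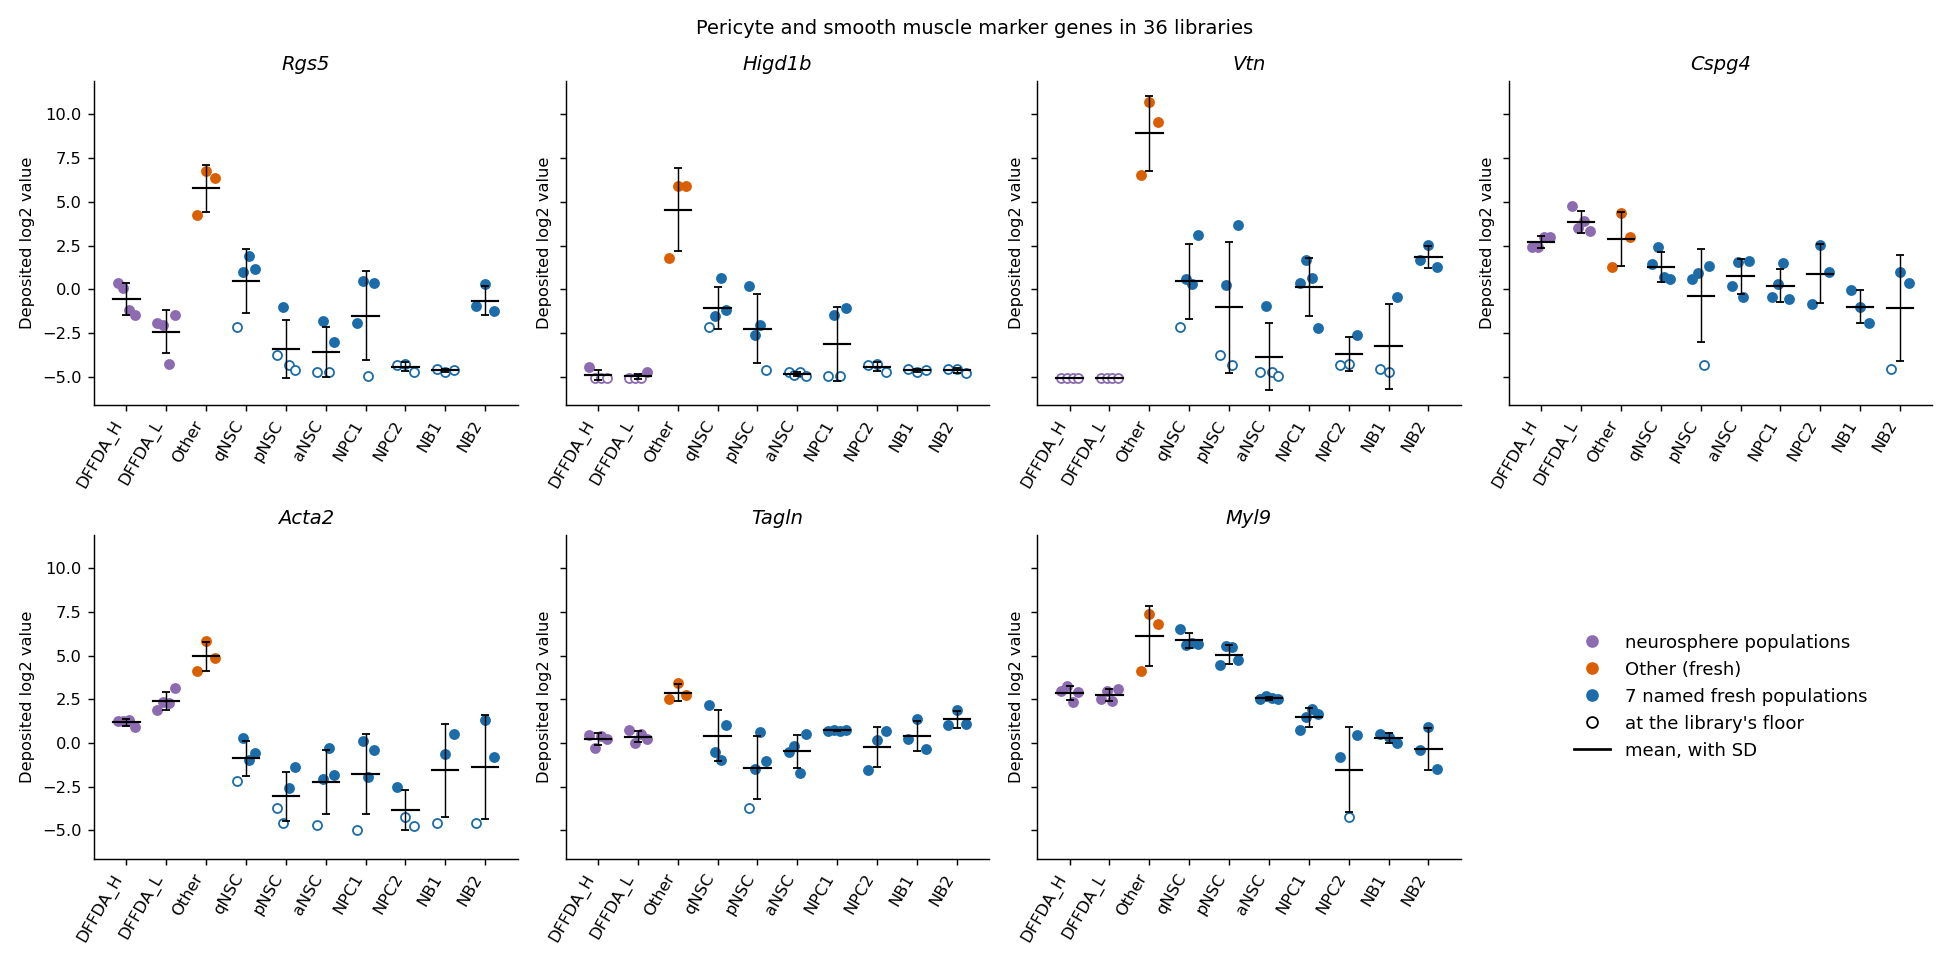
Deposited log2 value of the 7 marker genes (vertical axes) in each library, by group (horizontal axes). Points are libraries, open where the gene is at the floor of its library, and bars are means with SD. All 3 Other libraries lie above every other library for Rgs5, Higd1b, Vtn, Acta2 and Tagln, while Myl9 overlaps between Other and qNSC and Cspg4 is highest in DFFDA_L.

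Mural transcripts were higher in the population labelled Other. All 7 genes were higher in Other than in the mean of the 7 named populations, in a limma model fitted to the 28 freshly sorted libraries with Benjamini-Hochberg adjustment over 17788 genes. At the same threshold, an adjusted p under 0.05, 54.3% of all genes tested were called and 25.9% were higher in Other. To be fitted, a gene had to reach a log2 value of 0 in 3 libraries of 1 group, which Higd1b and Acta2 did only in Other. The p-values of Higd1b and Acta2 in this comparison are therefore descriptive only. The median difference of the 7 genes was 7.05 on the log2 scale, against -0.06 over all genes tested. In sorted pools, fewer cells of a type and less RNA per cell cannot be told apart.

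Rgs5 encodes a GTPase-activating protein that dampens G protein signalling in pericytes (chromosome 1, 169655501 to 169695813, GRCm38). Its log2 values were 4.23, 6.75 and 6.35 in the Other libraries, whereas the 25 libraries of the named populations lay between -4.97 and 1.93 with a median of -2.99. The groups did not overlap, and 13 of the 25 libraries were at the floor. The difference was 8.31 ± 0.92 (SE; adjusted p = 6.33e-08), or 5.59 with values below 0 set to 0.

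Higd1b, a small mitochondrial protein of the hypoxia-inducible domain family, is one of the most restricted pericyte transcripts (chromosome 11, 102835849 to 102838040). It had log2 values of 1.82, 5.89 and 5.94 in Other and at most 0.62 in a named library. It was at the floor in 17 of the 25 named libraries. The difference was 8.12 ± 0.89 (SE; adjusted p = 4.98e-08), or 4.52 with values below 0 set to 0.

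Vtn, which encodes the adhesive matrix glycoprotein vitronectin, ranked highest of the members per kilobase of exon in each of the Other libraries (chromosome 11, 78499091 to 78502324). Its log2 values there were 6.54, 10.69 and 9.55. The named libraries reached at most 3.68, in pNSC replicate 4, and 10 of them were at the floor. Other exceeded them by 10.27 ± 1.24 (SE; adjusted p = 2.18e-07), or 8.28 with values below 0 set to 0, and no library overlapped.

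Acta2 (chromosome 19, 34241090 to 34255590) had log2 values of 4.14, 5.83 and 4.89 in Other, and -4.97 to 1.3 in the named libraries. Again the groups were separate, by a difference of 7.05 ± 1.07 (SE; adjusted p = 5.79e-06), or 4.85 with values below 0 set to 0. Of its 50-base stretches 0.33% also occur in the actin gene Actg1 or in actin pseudogenes.

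Tagln encodes transgelin (SM22), an actin-binding protein of smooth muscle (chromosome 9, 45929619 to 45936058). Its log2 values were 2.50, 3.43 and 2.72 in Other and -3.74 to 2.16 in the named libraries, a difference of 2.77 ± 0.64 (SE; adjusted p = 0.000771), or 2.32 with values below 0 set to 0. The Tagln value is uncertain, because 1241 of its 1988 exon bases are shared with an antisense gene, Gm48529, and 108 with Pcsk7 on the opposite strand, and the library kit does not mark strand. The antisense gene stood at 2.26, 3.25 and 2.52 in the same Other libraries.

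The other members overlapped between the groups. Myl9 (chromosome 2, 156775420 to 156781658) had log2 values of 4.15, 7.38 and 6.83 in Other. The named libraries reached 6.51 for this gene, in qNSC replicate 1, so its difference of 4.20 ± 0.60 (SE; adjusted p = 2.46e-06) averages over populations that differ widely among themselves. It was 3.87 with values below 0 set to 0. Cspg4 (chromosome 9, 56865033 to 56899870) had log2 values of 1.28, 4.34 and 3.01 in Other and -4.56 to 2.55 in the named libraries. Its difference was 2.78 ± 0.97 (SE; adjusted p = 0.0179), and this call ended without Other replicate 2 (adjusted p = 0.153) and without Other replicate 3 (adjusted p = 0.0696). The Cspg4 difference was 2.17 with values below 0 set to 0. Thus 5 of the 7 genes were higher in Other with no overlap, against 4.83% of all genes tested. Higd1b and Acta2, which are among these 5, passed the filter only through Other.

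**Figure D2:**
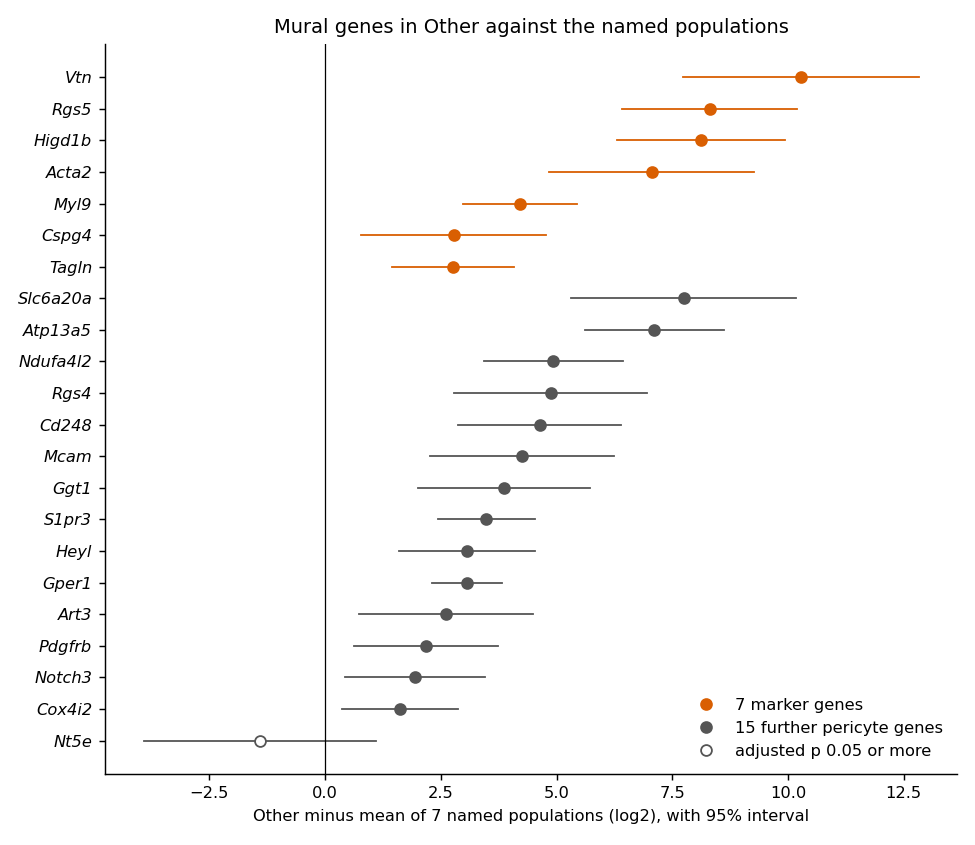
Log2 value in Other minus the mean over the 7 named populations, weighted equally (horizontal axis), with 95% intervals from limma, for the 7 marker genes and 15 further pericyte genes (vertical axis). Filled points passed an adjusted p of 0.05, and Nt5e is the only open point.

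Most of a wider list of mural genes were higher in Other too. Of 15 further pericyte genes measured, 14 were higher in Other, and Nt5e, an ecto-nucleotidase, was not called (the median difference of the list was 3.48). The summed level of this list, as the sum of 2 to the log2 values, overlapped with qNSC. It was 79.7 to 574 in Other and 214 to 276 in qNSC, and 10.5 to 276 over all named libraries. Atp13a5, a P5-type transport ATPase, stood at 2.50, 6.11 and 3.84 in Other, with a difference of 7.11 ± 0.73 (SE; adjusted p = 1.95e-08). The estrogen receptor Gper1, the sphingosine-1-phosphate receptor S1pr3 and the mitochondrial protein Ndufa4l2 were higher in Other by 3.06, 3.48 and 4.93. Of 14 further smooth muscle genes tested, 8 were higher in Other and 1, the actin crosslinker Flna, was lower, with a list median of 1.38. The actin-binding caldesmon gene Cald1 rose by 3.12, Crip1 by 2.86 and the tropomyosin gene Tpm1 by 1.36. For smooth muscle myosin, Myh11, only the level in Other is given, a mean of 2.2 ± 0.20 (SD, n = 3).

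The ligand and receptors of mural recruitment were also measured. In that list of 17 genes 9 were higher and 4 lower in Other. The list is not separate from the others: it shares Eng and Tek with the endothelial list. Pdgfrb and Notch3 are also further pericyte genes, and Ednra is also a further smooth muscle gene. The TGF-beta type receptor Acvrl1, its co-receptor Eng and the angiopoietin receptor Tek, all known from endothelium, were higher by 8.22, 5.40 and 6.67. The TGF-beta receptor Tgfbr2 was higher by 2.65. Abcc8, which encodes a sulfonylurea receptor, was the one gene of the ATP-sensitive potassium channel family analysed, and it was not called (difference 1.16).

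Markers of several other cell types were high in Other too, most of all those of endothelium. All 18 endothelial genes were higher, with a median difference of 7.30. Their summed level, as the sum of 2 to the log2 values, was 1814, 4639 and 3813 in Other replicates 1, 2 and 3, and 81.9 to 429 in the named libraries. The endothelial gene Cldn5 stood at 8.06, 9.75 and 9.33 in Other. Of 15 microglial genes 12 were higher, with summed levels of 750 to 1326 in Other and 201 to 1117 in the named libraries. Of 10 fibroblast genes 6 were higher and 1 lower. Slc6a13, Dcn and Igf2 were higher in Other by 7.70, 7.53 and 6.65 with no overlap, as large as the mural differences. They too passed the filter on low values only through Other, and their differences rest partly on floor values in the named libraries. The summed fibroblast level was 254 to 364 in Other and 167 to 320 in the named libraries. It was carried mostly by genes such as Fbln1 (difference 0.17, not called). Of 12 neuroblast genes 11 were higher, with summed levels of 6836 to 9920 in Other and 196 to 10752 in the named libraries. Ependymal and astroglial genes did not rise as lists. Of 10 ependymal genes tested 3 were higher and 1 lower in Other, with a median difference of -0.44. Of 12 astroglial genes 3 were higher and 4 lower, with a median difference of 0.05. None of these endothelial, microglial, fibroblast or neuroblast genes was at the floor in an Other library, and their part in the mural differences was not tested.

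Among the Other libraries, replicate 1 was lowest for every one of the 7 genes. The summed level of the 7 genes was 159, 2077 and 1048 in Other replicates 1, 2 and 3, against 1.81 to 99.0 in the named libraries. Replicate 2 exceeded replicate 1 by 4.16 for Vtn and 4.08 for Higd1b on the log2 scale, and by 0.93 for Tagln. Replicate 1 was also lowest in summed endothelial, microglial and fibroblast level and highest in summed neuroblast level. Without replicate 1 the 7 differences lay between 2.96 for Tagln and 11.47 for Vtn, and all 7 genes remained called.

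**Figure D3:**
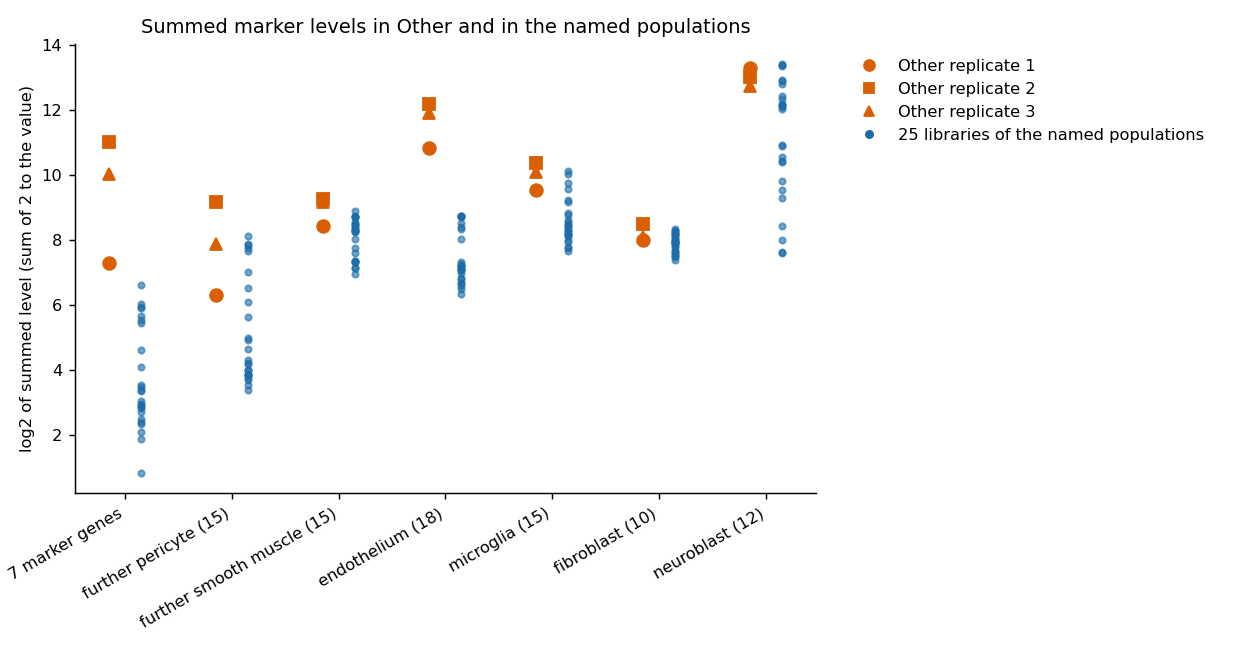
Log2 of the summed level of each marker list (vertical axis) by list, with the number of genes summed in brackets (horizontal axis). Orange symbols are the 3 Other libraries and blue points the 25 libraries of the named populations. Other stands clear of the named libraries for the 7 marker genes and for endothelium, and overlaps their range for the remaining lists.

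Within the named populations the 7 genes differed among themselves, and only Myl9 was abundant. Over the 8 fresh populations, Other included, 6 of the 7 genes varied in a limma F-test, against 90.4% of all genes tested. Cspg4 was not called (adjusted p = 0.081). Higd1b and Acta2, which are among these 6, passed the filter only through Other, so their F-test results are descriptive only. As Other is in the test, it does not show variation within the named populations. Myl9 had log2 values of 6.51, 5.63, 5.71 and 5.64 in qNSC and 4.45, 5.53, 5.47 and 4.76 in pNSC. In aNSC it had 2.50, 2.67, 2.56 and 2.50, in NPC1 0.74 to 1.96, and in NPC2, NB1 and NB2 at most 0.89. Each of the first 4 populations lay below the one before it with no overlap, while NPC2, NB1 and NB2 overlapped. Of all genes tested, 10.5% were lower without overlap in pNSC than in qNSC, 19% in aNSC than in pNSC and 14% in NPC1 than in aNSC.

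Myl9 fell by 3.31 ± 0.69 in aNSC relative to qNSC (SE; adjusted p = 0.000184), and by 2.50 ± 0.69 in aNSC relative to pNSC (SE; adjusted p = 0.00437). Between pNSC and qNSC the difference of -0.82 did not pass (95% interval -2.24 to 0.61), nor did that of -1.09 between NPC1 and aNSC (95% interval -2.52 to 0.34). In NPC2 it fell by 2.99 ± 0.75 relative to NPC1 (SE; adjusted p = 0.0403), but this call ended without NPC2 replicate 2, which was at the floor (adjusted p = 0.398), and in 4 of the 6 other fits that left out 1 NPC1 or NPC2 library. The difference was -1.31 and not called with values below 0 set to 0 (adjusted p = 0.237), and the call also ended without the trend and robust settings (adjusted p = 0.0695), with a replicate block (adjusted p = 0.0625) and with only NPC2 and NPC1 fitted (adjusted p = 0.115). It was the 1 gene of the 7 called between NPC2 and NPC1, against 1.34% of all genes called and 1.14% called lower.

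Rgs5, Vtn and Higd1b were low in qNSC and lower or at the floor in aNSC, while Cspg4 overlapped between these populations (difference -0.55, adjusted p = 0.685). Rgs5 had log2 values of -2.18, 1.01, 1.93 and 1.14 in qNSC, -3.74, -1.0, -4.31 and -4.60 in pNSC, and -4.71, -1.81, -4.75 and -2.99 in aNSC. The -2.18 of qNSC is the floor of replicate 1, and 3 pNSC and 2 aNSC values are floors too. Rgs5 fell by 3.89 ± 1.06 in pNSC relative to qNSC (SE; adjusted p = 0.0102), the 1 gene of the 7 called there, against 22.3% of all genes called and 8.06% called lower. With values below 0 set to 0 the fall was 1.02 (adjusted p = 0.0378), and the call ended when only pNSC and qNSC were fitted (adjusted p = 0.0587) or libraries were weighted (adjusted p = 0.0569).

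Between aNSC and qNSC 4 of the 7 genes were lower in aNSC, where 62.3% of all genes were called and 27.1% were lower. Besides Myl9 these were Rgs5, which fell by 4.04 ± 1.06 (SE; adjusted p = 0.00183), Vtn, which fell by 4.30 ± 1.43 (SE; adjusted p = 0.0112), and Higd1b, which was at the floor in all 4 aNSC libraries and had -2.18, -1.53, 0.62 and -1.17 in qNSC (adjusted p = 0.00239). With values below 0 set to 0 Rgs5 fell by 1.02 and stayed called, whereas the calls of Vtn (difference -0.997, adjusted p = 0.254) and Higd1b (difference -0.16, adjusted p = 0.817) ended. The Vtn call also ended without qNSC replicate 4 (adjusted p = 0.054), whose value of 3.10 was the highest of that population. Cspg4, Acta2 and Tagln were not called.

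Between aNSC and pNSC 2 of the 7 genes were lower in aNSC, against 48.3% of all genes called and 19.9% called lower. These were Myl9 and Higd1b (adjusted p = 0.04), the second of which had floor values throughout aNSC. The Higd1b difference was -0.052 with values below 0 set to 0 (adjusted p = 0.964), and its call also ended with library weights, with only aNSC and pNSC fitted, and when any 1 of 7 of the 8 libraries was left out. None of the 7 was called between NPC1 and aNSC or between NB1 and NPC2 by limma, where 12.7% and 7.67% of all genes were called. At an unadjusted p under 0.05, 1 gene passed in each, Vtn between NPC1 and aNSC and Myl9 between NB1 and NPC2.

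**Figure D4:**
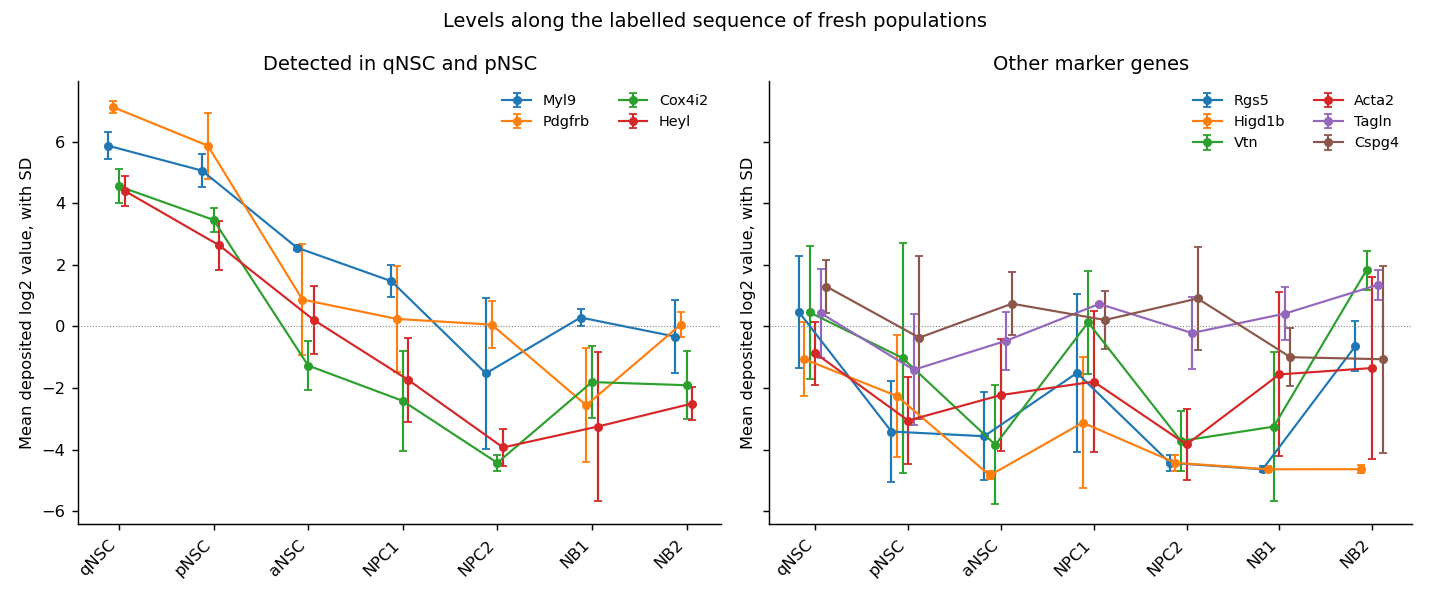
Mean log2 value with SD (vertical axes) of Myl9 with Pdgfrb, Cox4i2 and Heyl (left) and of the 6 remaining marker genes (right) in the 7 named populations, ordered from qNSC to NB2 (horizontal axes). The genes on the left have their highest means in qNSC and are lower in pNSC and aNSC, while those on the right have means below 2 throughout.

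Several further pericyte genes were, like Myl9, lower in aNSC than in qNSC. Of 15 measured, 8 were lower and none was higher. Pdgfrb, the PDGF-B receptor, had log2 values of -1.80, 1.79, 1.47 and 2.01 in aNSC, against 7.15, 7.30, 6.84 and 7.18 in qNSC. It thus fell by 6.24 ± 0.87 (SE; adjusted p = 7.64e-07), and its qNSC values lay above the 1.95, 5.67 and 3.94 of the Other libraries. Cox4i2, a cytochrome oxidase subunit, fell by 5.82, Atp13a5 by 5.38 and the Notch effector Heyl by 4.19. Of 14 further smooth muscle genes tested 6 were higher and 3 lower in aNSC. Smtn, Srf and Cald1 rose by 4.97, 1.59 and 2.05 while Synpo2 fell by 5.15. The summed endothelial level was 143 to 162 in aNSC and 419 to 429 in qNSC, with 1 of 18 genes higher and 3 lower. Of 10 fibroblast genes 3 were lower and 3 higher in aNSC. The differences were -8.00 for Col1a1 and -6.21 for Col1a2, with no overlap in either. Col1a1 was at the floor in aNSC replicates 1 and 3, and Col1a2 in aNSC replicate 1. Mfap4 and Fbln2 were higher in aNSC by 4.03 and 1.19, also with no overlap. Dcn, Slc6a13, Col3a1 and Igf2 were not called. All 12 astroglial genes fell, with summed levels of 2005 to 3597 in aNSC and 24622 to 26494 in qNSC. Cdh5, 1 of the 18 endothelial genes, was at most -0.99 in qNSC and at most -3.45 in aNSC. The summed level of the endothelial list was nevertheless higher in qNSC than in any other named population. The part of endothelial, fibroblast or astroglial RNA in the differences of the pericyte genes was not tested.

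Between NB2 and NB1, 2 of the 7 genes, both pericyte markers, were higher in NB2, and most of their NB1 values were floors. Rgs5 had log2 values of -0.97, 0.28 and -1.23 in NB2 and was at the floor in all 3 NB1 libraries (adjusted p = 0.0183). Vtn had 1.68, 2.52 and 1.28 in NB2, against -4.56, -4.75 and -0.45 in NB1, of which the first pair are floors (adjusted p = 0.0258). Neither gene overlapped between the groups. Of all genes tested, 24.6% were called, 10.4% were called higher in NB2 and 24.5% were higher in NB2 without overlap. With values below 0 set to 0 both calls ended (differences of 0.095 for Rgs5 and 1.83 for Vtn, adjusted p = 0.952 and 0.115), and the Vtn call ended when any 1 library but NB1 replicate 3 was left out. The Rgs5 call ended without NB2 replicate 2 (adjusted p = 0.0835). Higd1b was at the floor in all 6 of these libraries. Of 18 endothelial genes none was called higher and 1 was lower in NB2, though the median difference of that list was 1.29, against -0.03 over all genes. The part of endothelial RNA was not tested.

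The cultured cells held a different selection of the genes. All 8 neurosphere libraries had Vtn at the floor, and Higd1b was at the floor in 6 and at most -4.47 in the others. Rgs5 lay between -4.24 and 0.35. Myl9, Cspg4 and Acta2 were above 0 in all 8 libraries.

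Cspg4 had log2 values of 2.43, 2.42, 2.99 and 2.97 in DFFDA_H and 4.74, 3.52, 3.89 and 3.31 in DFFDA_L. Acta2 had 1.29, 1.25, 1.3 and 0.90 in DFFDA_H, against 1.89, 2.32, 2.31 and 3.13 in DFFDA_L. For both genes every DFFDA_H library lay below every DFFDA_L library, as for 19.8% of all genes tested. Cspg4 fell by 1.16 ± 0.28 (SE; adjusted p = 0.00465) and Acta2 by 1.23 ± 0.26 (SE; adjusted p = 0.00198) in DFFDA_H, in a limma fit of the 8 neurosphere libraries. Both calls ended in a fit to all 36 libraries, of which 28 are of fresh cells (adjusted p = 0.477 and 0.493).

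Of the 4 members that passed the filter on low values in culture, these 2 were lower and none was higher, against 43.8% of all 15956 genes called and 22.3% called lower. Tagln differed by -0.16 (95% interval -0.78 to 0.45) and Myl9 by 0.12 (95% interval -0.38 to 0.62). Of 7 further pericyte genes tested 3 were higher in DFFDA_H and 2 lower. S1pr3 rose by 2.57, Rgs4 by 1.62 and Notch3 by 0.95, while the adhesion molecule Mcam fell by 1.85. Pdgfrb was at most -2.13 in culture.

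Since Cspg4 also marks oligodendrocyte precursors, their genes are given beside it. Of 9 such genes tested 5 were lower and 1 was higher in DFFDA_H, and the summed level of 14 was 1104 to 1721 in DFFDA_H and 1078 to 2066 in DFFDA_L. Pdgfra, the defining receptor of those cells, fell by 2.76 in DFFDA_H (adjusted p = 0.000969), while Sox10 was at most -2.66 in all 8 libraries. The sum was carried by others of the list: Olig1 lay at 9.36 to 10.18 in DFFDA_H and 9.26 to 10.28 in DFFDA_L, Olig2 at 7.37 to 7.95 in DFFDA_H and 7.23 to 8.43 in DFFDA_L, and Lhfpl3 at 6.61 to 6.99 in DFFDA_H and 7.11 to 8.24 in DFFDA_L. In Other, 1 of 13 of these genes tested was higher and 6 were lower. Sox10, which did not pass the filter on low values in the fresh libraries, was at or below -3.03 in Other. Some further genes of the list stood above Sox10 in Other: Vcan at 7.24, 6.87 and 6.68, Cspg5 at 5.61, 6.88 and 7.24, and Gpr17 at 1.35, 2.88 and 2.03. Named populations exceeded Other for the first pair, with Cspg5 at 10.75 to 10.88 in qNSC and Vcan at 7.80 to 8.04 in NB2. The part of oligodendrocyte precursor RNA in the Cspg4 values was not tested.

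**Figure D5:**
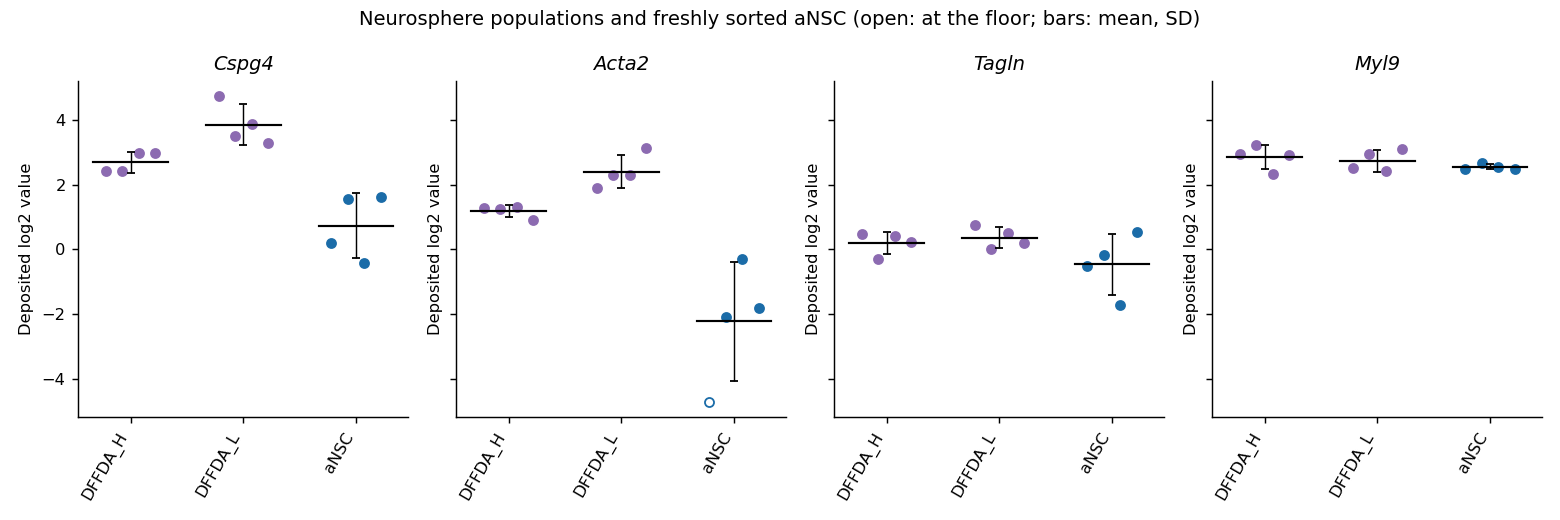
Log2 values of Cspg4, Acta2, Tagln and Myl9 (vertical axis) in DFFDA_H, DFFDA_L and freshly sorted aNSC libraries (horizontal axes), with means and SD. Cspg4 and Acta2 are lower in DFFDA_H than in DFFDA_L and lowest in aNSC, while Myl9 lies between 2.34 and 3.25 in all 12 libraries.

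Set against freshly sorted aNSC, the neurospheres (the mean of DFFDA_H and DFFDA_L) had 3 of the 7 genes higher and none lower, in a limma fit to all 36 libraries in which 75% of all genes were called and 33.9% were higher. Acta2 was higher by 4.03 ± 0.95 (SE; adjusted p = 0.000315) and Cspg4 by 2.55 ± 0.87 (SE; adjusted p = 0.00901), with no overlap in either, against 30% of all genes higher without overlap. Rgs5 was higher by 2.08 ± 0.85 (SE; adjusted p = 0.0283) with overlap, and that call ended with values below 0 set to 0 (difference 0.051, adjusted p = 0.919) and without aNSC replicate 1, aNSC replicate 3 or DFFDA_L replicate 4 (adjusted p = 0.106, 0.108 and 0.0503). Myl9 differed by 0.25 (95% interval -0.86 to 1.36). With values below 0 set to 0 the Acta2 difference was 1.80. Culture, passage and sort differ together between these groups and cannot be told apart.

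Ordered by mean level, the groups overlapped for most members. Below Other, neighbouring groups separated without overlap only for Acta2 (DFFDA_L over DFFDA_H, and DFFDA_H over qNSC), Tagln (NB2 over NPC1) and Myl9, and for Vtn between aNSC and DFFDA_H, where 3 of the 4 aNSC values and all DFFDA_H values are floors. For Cspg4 the order began with DFFDA_L at 3.87 ± 0.63 (SD, n = 4), Other at 2.88 ± 1.54 (SD, n = 3) and DFFDA_H at 2.70 ± 0.32 (SD, n = 4), and each group overlapped with the next.

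Across the 28 fresh libraries, the genes most like each member by Pearson correlation of log2 values differed from member to member. These correlations describe libraries of 8 populations that were sorted apart and share 1 normalization, with low values set by each library's floor. Of the pairs named here, all but Myl9 with Vstm4 had a lower r when the 3 Other libraries were left out. Rgs5 was most like Higd1b (r = 0.84, and 0.58 without Other), Pcp4l1 (r = 0.84) and Vtn (r = 0.84), 2 of which are members. Vtn was most like Slc9a3r2 and Pdlim2 (r = 0.87 each), Higd1b like Gm45717 and Ifitm2 (r = 0.88 each), and Acta2 like Hspb1 (r = 0.87) and the endothelial gene Ly6c1 (r = 0.84). Cspg4 was most like Tec (r = 0.77, and 0.75 without Other). Myl9 was most like Gm15581 (r = 0.92), the matrix protein gene Sparc (r = 0.91) and Vstm4 (r = 0.91), and these stayed at 0.90, 0.89 and 0.92 without Other. Tagln was most like its own antisense gene (r = 0.93, and 0.90 without Other), with which it shares exon bases. Between Tagln and Myl9 the correlation was 0.11, and -0.21 without Other.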

How the data were processed

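Poly(A) RNA was sequenced from 36 libraries with the SMARTer Ultra Low kit, per the labels' protocols. Per the submitters' processing notes, the tools included HISAT2, featureCounts, limma, Trimmomatic, cutadapt and FastQC, and the builds named are mm10 and GRCm38, with no version or role. Log2 values of 19909 genes in 1 table are what the authors deposited. Its unit was inferred from the values: 2 to the power of each column sums to 987637 to 987910, and column medians of 3.53 to 3.56 resemble quantile normalization, which hides changes in total RNA per cell. Depth is unknown, and 362 to 3932 genes share the floor of a library.

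Members and gene lists were chosen with earlier results of these data known. Genes reaching a log2 value of 0 in 3 or more libraries of any 1 group were fitted with limma 3.58.1 (R 4.3.3; trend and robust empirical Bayes): 17788 genes in the 28 fresh libraries, 15956 in the 8 neurosphere libraries and 19158 in all 36. The scripts were tested on simulated data. P-values were adjusted by Benjamini-Hochberg over all genes, and adjusted p under 0.05 was called. In each comparison the text names all members, up to 4 called genes with the smallest p from each list, and, beside them, defining markers and single exceptions chosen after their values were seen. By Pearson correlation, up to 3 similar genes are named per member. The labels name no batch. Gene positions came from GENCODE (GRCm38, 19863 identifiers matched), and 5 of the 7 members matched a RefSeq promoter.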

Additional observations from a re-analysis of the deposited data

Results flagged for a closer look

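In groups of 4 libraries, a library was marked when its gap to the nearest of the others took up more than 0.829 of the range of the group (the 95% critical value of Dixon's test). Of 40 gene and group pairs tested 6 were marked. Chance marks about 1 in 20 only where values are free of a floor, so the count cannot be set against that rate. In the Higd1b and Vtn marks below, all other libraries of the group were at the floor. Myl9 was 6.51 in qNSC replicate 1, the library with the highest floor, against 5.63 to 5.71 in the others. Cspg4 was at the floor, -4.31, in pNSC replicate 3, against 0.59 to 1.31. Vtn was -0.95 in aNSC replicate 2, where the others were at the floor. Acta2 was 0.90 in DFFDA_H replicate 4, against 1.25 to 1.3. Higd1b was -4.47 in DFFDA_H replicate 1 and -4.75 in DFFDA_L replicate 4, just above a floor of -5.06 in the other libraries of each group.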

How the results depend on the processing

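The count of 7 genes higher in Other was 7 or 6 under all 35 alternatives, with 6 or 7 varying over the fresh populations, and the direction of every one of the 7 held there. Calls between the named populations depended on the setting. With values below 0 set to 0, the count was 1 between aNSC and pNSC, 2 between aNSC and qNSC and 0 between NPC2 and NPC1 and between NB2 and NB1. With no trend and no robust setting it was 0 between NPC2 and NPC1. With library weights it was 0 between pNSC and qNSC and 1 between NPC1 and aNSC. With only the compared groups fitted it was 0 between pNSC and qNSC, 1 between aNSC and pNSC, 2 between NPC1 and aNSC and 0 between NPC2 and NPC1. With all 36 libraries fitted it was 0 between DFFDA_H and DFFDA_L. The cause of these moves was not tested. Same-numbered libraries of different groups had a median correlation of deviations of 0.04 in the fresh cells (90 pairs, -0.205 to 0.194), against -0.011 for other pairs. In the neurospheres it was 0.075 (4 pairs, -0.095 to 0.238), against -0.041 for other pairs. Such correlations cannot show whether same-numbered libraries shared animals or a sort. A replicate block moved only the count between NPC2 and NPC1, to 0 (Myl9 adjusted p = 0.0625). Leaving out 1 library at a time gave counts of 1 to 2 between pNSC and qNSC and between aNSC and pNSC, 0 to 1 between NPC1 and aNSC, NPC2 and NPC1, and NB1 and NPC2, and 0 to 2 between NB2 and NB1. Reversed directions occurred only in comparisons where the gene was not called. With values below 0 set to 0 these were Tagln between aNSC and pNSC (-0.022), and Cspg4 (0.45) and Myl9 (0.0030) between NB2 and NB1. With library weights they were Vtn between NB1 and NPC2 (-1.09) and Cspg4 between NB2 and NB1 (0.81). When 1 library was left out, Rgs5 ranged from -0.74 to 0.65 and Cspg4 from -0.21 to 1.66 between aNSC and pNSC, Acta2 from -0.39 to 1.49 between NPC1 and aNSC, and Cspg4 from -0.12 to 1.56 between NPC2 and NPC1. Between NB1 and NPC2 Tagln ranged from -0.021 to 1.09 and Vtn from -0.93 to 1.21, and between NB2 and NB1 Higd1b from -0.053 to 0.081, Cspg4 from -1.10 to 1.68 and Acta2 from -1.29 to 1.81. Between DFFDA_H and DFFDA_L Myl9 ranged from -0.0078 to 0.29. Where all libraries of both groups lay at or below 0, setting values below 0 to 0 gave no value. A floor limits what low values can show, and groups of 3 or 4 libraries limit the precision.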
